A study of Mus musculus with 283 samples.

Results

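The spleens of 5 female C57BL/6J mice carrying an orthotopic PAN02 tumour were compared with the spleens of 5 female C57BL/6J mice without a tumour. PAN02 is a mouse pancreatic carcinoma line. It was grown in the pancreas, whose tail adjoins the spleen, and not under the skin. All 10 arrays were chosen by their labels, out of 283 in the series, 98 of them spleens, and no measured value entered the choice. Every gene represented by a probe set with a single gene symbol was considered. The animals were killed when tumours averaged 200 mm3, and no treatment is named for either group. PAN02 spleens came from animals 1, 3, 4, 5 and 6, and tumour-free spleens from animals 1 to 5. No age is given, and the line is represented by 1 culture and by tumours of animals 1, 3, 4 and 6. The third group compared was 43 spleens of C57BL/6J females with other tumours, grown under the skin, in 8 groups that form 5 families. These were B16 melanoma (4 stocks), EL4 lymphoma, LL2 and TC1 lung-derived tumours and MC38 colon carcinoma. Spleens of 5 tumour-free C57BL/6J males were used to select genes of the cultured line and as alternative controls. The main fit and the filter on low values used all 98 spleens, including BALB and DBA spleens and those of further tumour lines. Errors and p-values of that fit therefore do not rest on C57BL/6J females alone.

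The spleen combines a white pulp of T and B cell zones with a red pulp in which macrophages remove worn red cells and recycle their iron. In mice the red pulp also makes blood cells, and it can enlarge its production of red cells and granulocytes during inflammation or tumour growth. Granulocytes fill their granules with antimicrobial proteins while still immature, and red cell precursors divide several times while they build haemoglobin. Transcripts of granule proteins and haem synthesis therefore mark blood cell production in tissue RNA. Transcripts of mitosis accompany it but mark dividing cells of any type.

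Values were log2 intensities normalised by the authors, in which 1 unit is a doubling of signal. Of 13414 genes tested with limma, 254 were called (1.89%), 215 higher (1.6%) and 39 lower (0.291%), in PAN02 relative to tumour-free spleens, at a Benjamini-Hochberg adjusted p under 0.05 and a log2 fold change of at least 1. The median log2 fold change of all genes tested was 0.03. Errors of fold changes are standard errors of the fit, and errors of group means are SDs (n = 5 each). In whole spleens, more cells of a type and more RNA per cell cannot be told apart.

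Both groups carried the B cell and red pulp genes of spleen, with Cd79a, a B cell receptor chain, averaging 8.80 in PAN02 and 9.15 in tumour-free spleens, and Spic, a red pulp macrophage factor, at 6.87 to 8.35 and 5.01 to 7.03. Several spleens stood apart from others of their group. Tumour-free spleens 1 and 3 had the highest mean over the 10 measured adipocyte genes, 5.57 and 6.42, against 4.77 to 4.90 in PAN02 spleens and 4.70 to 5.07 in the other 3 tumour-free spleens. Tumour-free spleen 2 had the highest erythroid mean of its group, 6.44 against 4.82 to 5.07. Tumour-free spleen 4 had a mean over 24 pancreatic acinar genes of 5.70, against 4.17 to 4.27 in the rest of its group. The sample numbers of PAN02 organs (205 to 214) and of these controls (233 to 241) do not interleave, so processing order and group cannot be told apart. Without tumour-free spleens 1 and 3, 56 genes were higher and 14 lower, and 14 of the 30 genes with the largest changes were still called. With the 5 tumour-free C57BL/6J males as controls, 74 were higher and 18 lower, but sex then differs too. Leaving out single spleens moved the 254 calls by over 1.5 times in 4 cases, to 136 without PAN02 spleen 1, 161 without PAN02 spleen 6, 148 without tumour-free spleen 1 and 158 without tumour-free spleen 3.

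Tspan8, which encodes a tetraspanin of the cell surface that many carcinomas express, had the largest increase. Its values were 8.70, 9.48, 9.55, 8.37 and 9.59 in PAN02 spleens 1, 3, 4, 5 and 6, against 2.70, 7.26, 3.42, 3.31 and 4.52 in tumour-free spleens 1 to 5. The groups did not overlap, and tumour-free spleen 2 was the highest control. The means were 9.14 ± 0.56 and 4.24 ± 1.81, a log2 fold change of 4.90 ± 0.75 (limma, adjusted p = 5.6e-06), or 29.8-fold. Tspan8 lies on chromosome 10 from 115816817 to 115849893 (GRCm38.p6). It was also high in the PAN02 culture (10.09) and in the 4 PAN02 tumours (10.06 to 10.82).

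Tspan8 was also measured at high levels in spleens of other tumours. It averaged 8.86 in spleens of EL4 mice, 8.72 in TC1, 8.27 in LL2 and 7.97 in MC38, and 6.26 in the 20 B16 spleens. PAN02 spleens exceeded the mean of those 5 families by 1.12 ± 0.57, which was not called (limma, adjusted p = 0.70). The lowest PAN02 spleen, 8.37, lay inside the range of the 43 others, 3.52 to 9.51. In tumour-free males Tspan8 averaged 5.92, and against them the log2 fold change was 3.21 (limma, adjusted p = 0.0065).

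The start windows of Tspan8 and of the red cell genes among the 15 largest increases are given here because these genes lead the increase and motifs can be read from them directly. Of 7 erythroid genes in that set, 4 had a RefSeq window of GRCm38.p6, from 250 bases before to 50 bases after the start that the promoter table uses. That start is the first base of the gene record in Hemgn and Alas2, and lies 9 bases inside it in Kel and 50 in Rhag. In Tspan8 it lies 467 bases inside, so the whole window is within the gene record and does not cover the record's first base. Capitals mark AGATAA and TGATAA, 2 forms of the motif bound by GATA factors, searched on both strands, so that TTATCT and TTATCA are the same motifs on the opposite strand. The Tspan8 window is chr10:115817034-115817333, plus strand; Hemgn is chr4:46404134-46404433, minus strand; Rhag is chr17:40810899-40811198, plus strand; Kel is chr6:41704276-41704575, minus strand; Alas2 is chrX:150547167-150547466, plus strand. All are printed 5′ to 3′ in the direction of the gene.
Tspan8: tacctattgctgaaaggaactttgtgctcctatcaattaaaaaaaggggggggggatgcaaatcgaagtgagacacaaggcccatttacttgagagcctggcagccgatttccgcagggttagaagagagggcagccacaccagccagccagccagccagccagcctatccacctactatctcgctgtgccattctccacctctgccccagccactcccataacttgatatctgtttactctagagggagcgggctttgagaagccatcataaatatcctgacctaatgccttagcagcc
Hemgn: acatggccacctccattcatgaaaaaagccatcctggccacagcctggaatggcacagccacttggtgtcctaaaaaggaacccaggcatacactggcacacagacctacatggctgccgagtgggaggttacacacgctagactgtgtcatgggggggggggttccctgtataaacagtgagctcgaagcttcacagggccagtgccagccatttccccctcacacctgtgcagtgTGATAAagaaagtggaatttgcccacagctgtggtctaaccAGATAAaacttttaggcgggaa
Rhag: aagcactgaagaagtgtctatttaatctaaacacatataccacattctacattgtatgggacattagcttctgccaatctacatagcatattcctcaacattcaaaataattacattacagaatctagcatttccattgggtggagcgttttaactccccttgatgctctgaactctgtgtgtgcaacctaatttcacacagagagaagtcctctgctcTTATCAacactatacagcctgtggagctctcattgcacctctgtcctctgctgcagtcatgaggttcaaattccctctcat
Kel: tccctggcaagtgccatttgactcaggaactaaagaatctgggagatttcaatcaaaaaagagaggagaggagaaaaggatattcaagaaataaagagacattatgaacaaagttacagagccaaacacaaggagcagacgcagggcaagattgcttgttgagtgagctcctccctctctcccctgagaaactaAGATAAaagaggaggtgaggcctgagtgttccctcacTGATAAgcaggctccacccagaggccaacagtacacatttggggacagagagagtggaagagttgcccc
Alas2: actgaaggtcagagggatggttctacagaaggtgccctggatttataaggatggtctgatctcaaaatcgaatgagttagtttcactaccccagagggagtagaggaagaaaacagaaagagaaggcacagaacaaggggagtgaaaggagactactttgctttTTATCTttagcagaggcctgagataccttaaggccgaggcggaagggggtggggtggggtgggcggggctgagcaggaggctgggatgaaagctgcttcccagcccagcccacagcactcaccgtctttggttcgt
Hemgn and Kel held 2 matches each, Rhag and Alas2 1 each, and the Tspan8 window 0. Of the 33 erythroid genes measured, 25 had an entry, and 15 of these (60%) held a match in at least 1 of their windows. By window the share was 48.4% (15 of 31), against 18.6% of all 32851 windows. These are matches of letters and not measurements of binding, and the Tspan8 count covers its printed window alone.

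Red cell genes rose. Of 33 erythroid genes tested, 21 were higher and 0 lower, with a median log2 fold change of 1.41, beside 1.6% of all genes higher and their median of 0.03. C1qtnf12, which reached the list through an old name and has no erythroid role known here, is 1 of the 21. Hemgn, a nuclear protein of blood cell precursors on chromosome 4 (46393989 to 46404183), was at 9.91, 9.21, 8.47, 6.79 and 10.48 in PAN02 spleens 1, 3, 4, 5 and 6, against 4.46, 8.71, 4.40, 4.52 and 5.32 in tumour-free spleens 1 to 5. Its log2 fold change was 3.49 ± 0.75 (limma, adjusted p = 0.0014). The groups overlapped, since PAN02 spleens 4 and 5 lay below tumour-free spleen 2.

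Of the 21 called erythroid genes, 20 were highest in PAN02 spleen 6 among the 5 PAN02 spleens, and 19 were lowest in spleen 5. Slc4a1, the band 3 anion exchanger of the red cell membrane, was at 9.44, 9.01, 7.70, 6.62 and 9.94 in PAN02 spleens and at 4.29, 7.94, 4.52, 5.11 and 5.95 in tumour-free spleens (log2 fold change 2.98 ± 0.67, limma, adjusted p = 0.0026). Spleen 6 was the highest and spleen 5 the lowest PAN02 spleen in both genes, and tumour-free spleen 2 the highest control. Rhag, a membrane partner of the Rh proteins, rose by 2.99 ± 0.69, Kel, the Kell blood group protein, by 2.72 ± 0.64, and Alas2, which starts haem synthesis in red cell precursors, by 2.52 ± 0.56 on the log2 scale. Car2, carbonic anhydrase of the red cell cytoplasm, rose by 2.87 ± 0.71 (limma, adjusted p = 0.0071).

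Ferrochelatase (Fech, 1.28), the transferrin receptor (Tfrc, 1.75), spectrin beta (Sptb, 1.56), ankyrin (Ank1, 1.49) and protein 4.2 (Epb42, 1.84) were also called higher, values being log2 fold changes. The transcription factors of the lineage moved less. Klf1 differed by 0.93 and the erythropoietin receptor gene Epor by 0.90, both past the adjusted p but short of the fold limit, and Gata1 differed by 0.64 (limma, adjusted p = 0.31). Cldn13 rose by 2.53 ± 0.69 (limma, adjusted p = 0.017), but the call was lost without any of PAN02 spleens 1, 3 or 6 or tumour-free spleens 1 or 4 (limma, adjusted p = 0.051 to 0.093).

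Ctse, an aspartic protease that red cells and their precursors carry, rose by 2.92 ± 0.54 and Mageb16, a member of the MAGE family on the X chromosome, by 2.43 ± 0.57. All 5 PAN02 spleens lay above all 5 controls in 3 of the 33 erythroid genes, against 2.28% of all genes, and Mt2 was the 1 of these that was called. Mt2 is also among the 50 genes with the largest excess in cultured PAN02 cells over tumour-free male spleens. The erythroid list mean was 7.23, 6.93, 6.23, 5.78 and 7.75 in PAN02 spleens 1, 3, 4, 5 and 6, so that PAN02 spleens 4 and 5 lay below tumour-free spleen 2 (6.44). Against the other 5 families 0 of the 33 genes were called in either direction, with a median of -0.22. The 43 spleens of other tumours ranged from 5.10 to 8.11, around the PAN02 values.

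The erythroid count depended on the controls. It was 1 with males as controls, 1 without tumour-free spleens 1 and 3, where Hemgn differed by 2.79 (limma, adjusted p = 0.097), and 2 when only the 10 arrays were fitted. It was 12 without PAN02 spleen 1, 14 without PAN02 spleen 3, 9 without PAN02 spleen 6, 12 without tumour-free spleen 1 and 13 without tumour-free spleen 3 or 4.

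Genes of cell division moved with the red cell genes. Of 34 mitosis and cell cycle genes tested, 23 were higher and 0 lower, with a median of 1.23, and all 34 fold changes were positive. Over all genes, 1.6% were higher, with a median of 0.03. Birc5 (survivin, a subunit of the chromosomal passenger complex) was at 7.99, 7.97, 6.99, 6.28 and 8.86 in PAN02 spleens and at 5.66, 6.77, 4.53, 5.00 and 5.44 in tumour-free spleens. Its log2 fold change was 2.14 ± 0.49 (limma, adjusted p = 0.0031), and PAN02 spleen 5 lay below tumour-free spleen 2. Mki67, the proliferation marker Ki-67, rose by 1.72 ± 0.44, and Top2a, topoisomerase II alpha, by 1.38 ± 0.42.

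Of 30 DNA replication genes 3 were called higher, namely Gins1 (1.38), Cdc6 (1.41) and E2f8 (1.62), and 29 of the 30 differences were positive. The share called higher over all genes was 1.6%. Spleens 6 and 5 were again the highest and lowest PAN02 spleens by cell cycle mean (7.43 and 5.60). That mean was 8.42 in the PAN02 culture and 5.68 to 6.70 in PAN02 tumours. Which cells carried these transcripts was not tested. Against other tumour families the cell cycle list had 0 calls and a median of -0.09. Its count fell to 4 with only the 10 arrays, 1 with males as controls and 0 without tumour-free spleens 1 and 3. Without single spleens it was 6 (PAN02 1), 9 (PAN02 3), 4 (PAN02 6), 6 (tumour-free 1 or 3) and 12 (tumour-free 4).

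Part of the neutrophil genes rose. Ngp, a granule protein of immature neutrophils on chromosome 9 (110419808 to 110423012), was at 10.10, 8.32, 8.74, 7.73 and 8.87 in PAN02 spleens 1, 3, 4, 5 and 6, against 3.08, 5.98, 3.87, 4.46 and 6.16 in tumour-free spleens 1 to 5. The lowest PAN02 spleen lay above the highest control. The log2 fold change was 4.04 ± 0.59 (limma, adjusted p = 2e-06), or 16.5-fold.

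Of 17 neutrophil granule genes tested, 8 were higher and 0 lower, with a median of 0.94. Over all genes, 1.6% were higher, with a median of 0.03. The 8 called genes cover several granule types. Chil3 (2.41 ± 0.39), Mmp8, neutrophil collagenase (2.40 ± 0.33), Lcn2, which binds bacterial siderophores (2.26 ± 0.34), the cathelicidin Camp (1.86 ± 0.35) and lactoferrin (Ltf, 1.59 ± 0.30) belong to later granules. Mpo, myeloperoxidase (1.59 ± 0.32), and Ctsg, cathepsin G (1.47 ± 0.39), belong to the first granules formed. Elane, neutrophil elastase, differed by 0.66, short of the fold limit, and Prtn3, proteinase 3, by 0.64 (limma, adjusted p = 0.24).

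Genes of mature neutrophils followed. S100a9, a subunit of calprotectin, was at 11.22, 10.02, 10.14, 9.76 and 10.33 in PAN02 spleens and at 4.80, 7.93, 4.35, 6.58 and 8.07 in tumour-free spleens, with no overlap (log2 fold change 3.95 ± 0.60, limma, adjusted p = 5.6e-06). Its partner S100a8, the neighbouring gene on chromosome 3, rose by 3.84 ± 0.61. Retnlg, a resistin-like secreted protein of neutrophils, was at 9.31, 8.31, 7.38, 9.13 and 7.39 in PAN02 spleens and at 4.08, 5.65, 4.29, 5.62 and 5.96 in tumour-free spleens. It did not overlap between the groups and rose by 3.18 ± 0.50. With Clec4d (1.44) and Trem3 (1.03), both surface receptors of myeloid cells, 5 of 15 mature neutrophil genes were called higher and 0 lower. The share called higher over all genes was 1.6%.

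The receptors that mature neutrophils carry for growth factor and chemokine moved little. Csf3r, the receptor for granulocyte colony-stimulating factor, differed by 0.43 and Cxcr2 by 0.53, and neither was called. All 5 PAN02 spleens lay above all 5 controls in 7 of the 17 granule genes and 7 of the 15 mature genes, against 2.28% of all genes. PAN02 spleen 1 had the highest granule mean, 7.21 against 5.91 to 6.34 in the others. The granule count was 7 to 9 with males as controls, with single spleens left out and without tumour-free spleens 1 and 3, and 4 with animal number as a replicate block.

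Among the families, Ngp was highest in EL4 spleens (9.71), then PAN02 (8.75), LL2 (8.22), MC38 (7.38), TC1 (6.83) and B16 (5.99), and tumour-free females had 4.71. PAN02 spleens exceeded the mean of the other families in Retnlg by 1.61 ± 0.38 (limma, adjusted p = 0.0081) and in Mmp8 by 1.28 ± 0.25 (limma, adjusted p = 0.00040). Neither Ngp (1.13 ± 0.45) nor S100a9 (0.99 ± 0.46) was called in that comparison. The Retnlg call was lost without PAN02 spleen 1 (1.36, limma, adjusted p = 0.14), PAN02 spleen 5 (1.41, limma, adjusted p = 0.092) or the B16 family (1.25, limma, adjusted p = 0.15).

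**Figure D1:**
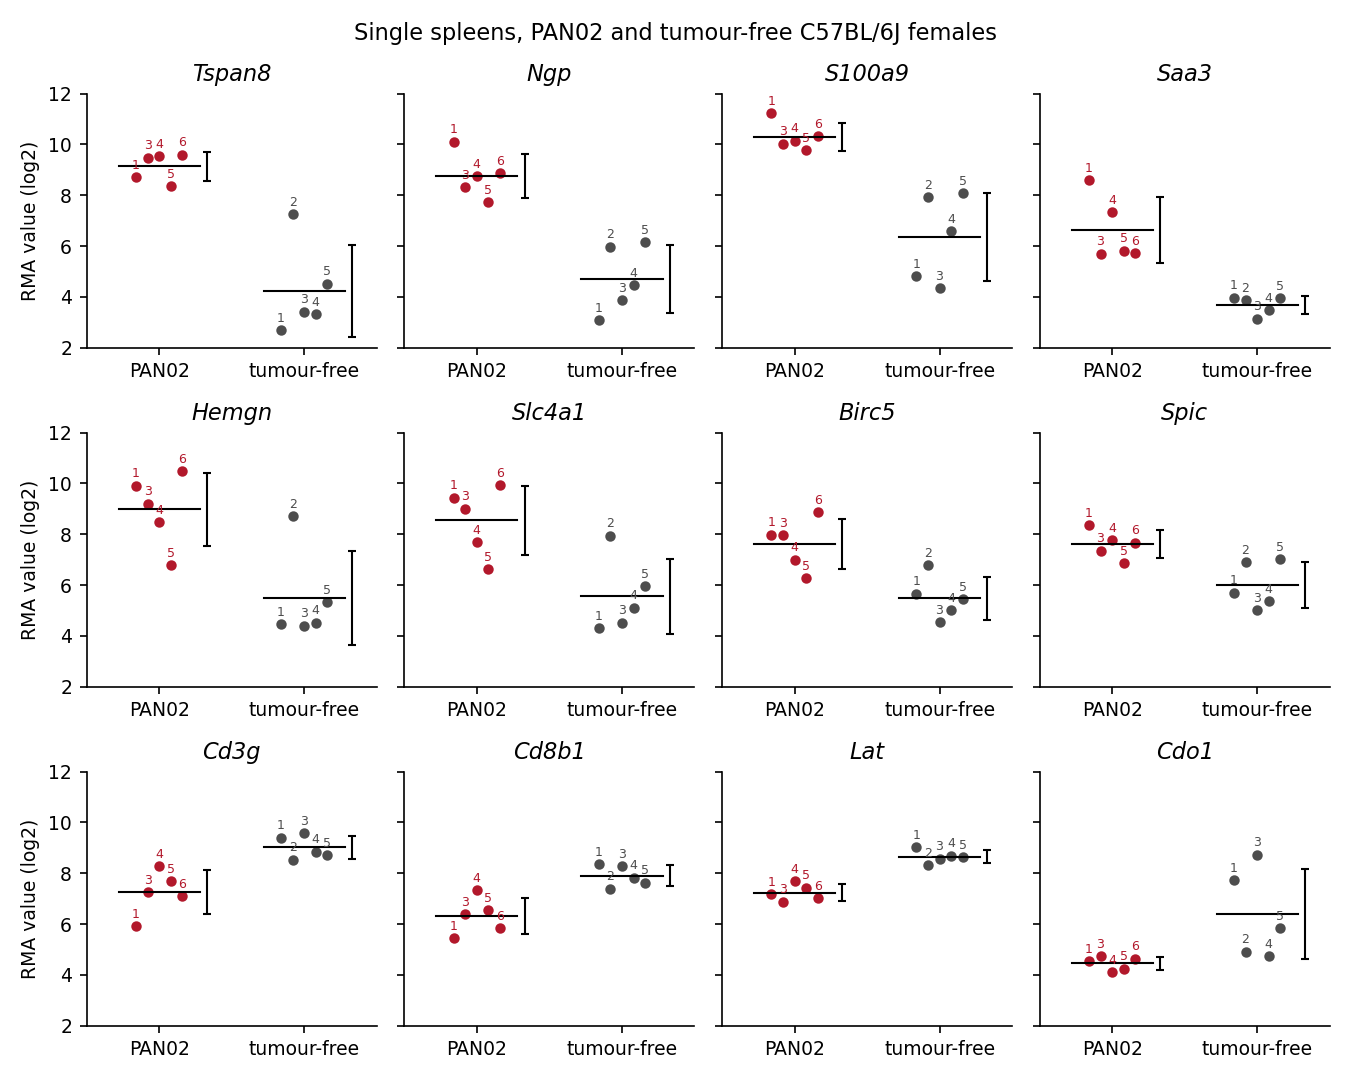
RMA values (log2) of 12 genes in 5 PAN02 spleens (red, left) and 5 tumour-free spleens (grey, right). Points are single spleens with their animal number, horizontal lines are means and bars are SDs. Tspan8, Ngp, S100a9 and Saa3 separate the groups, while tumour-free spleen 2 reaches into the PAN02 range of Hemgn and Slc4a1, and the high Cdo1 values are those of tumour-free spleens 1 and 3.

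Genes of red pulp macrophages were partly higher. Of 18 tested, 6 were called higher and 0 lower, with a median of 0.82, beside 1.6% higher and 0.03 over all genes. Spic, the transcription factor required for these macrophages, was at 8.35, 7.36, 7.75, 6.87 and 7.67 in PAN02 spleens and at 5.70, 6.90, 5.01, 5.37 and 7.03 in tumour-free spleens (log2 fold change 1.60 ± 0.42, limma, adjusted p = 0.012). The groups overlapped in PAN02 spleen 5. The iron exporter Slc40a1 rose by 1.67 ± 0.46, haem oxygenase Hmox1 by 1.31 ± 0.35 and biliverdin reductase B (Blvrb) by 1.27 ± 0.37.

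Slc40a1 was low in 2 controls. It was at 4.32 and 4.33 in tumour-free spleens 1 and 3 but at 7.13 to 7.94 in the other controls and 7.19 to 8.59 in PAN02 spleens. The macrophage count was 1 with only the 10 arrays fitted, 4 without PAN02 spleen 1 or 6, 3 without tumour-free spleen 1, 0 without tumour-free spleen 3 or without both tumour-free spleens 1 and 3, and 0 with males as controls. The platelet genes Ppbp (1.72 ± 0.39) and Pf4 (1.26 ± 0.36), both chemokines of platelet granules, were the 2 called of 16 megakaryocyte genes. The share called higher over all genes was 1.6%. Ppbp was again lowest in tumour-free spleens 1 and 3 (3.95 and 4.38, against 7.16 to 7.43 in the other controls).

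T cell genes fell. Of 25 tested, 11 were lower and 0 higher, with a median of -0.90, beside 0.291% of all genes lower, and 22 passed the adjusted p irrespective of size. Cd3g, a signalling chain of the T cell receptor complex on chromosome 9 (44969572 to 44980431), was at 5.93, 7.24, 8.27, 7.68 and 7.10 in PAN02 spleens, against 9.40, 8.53, 9.58, 8.85 and 8.70 in tumour-free spleens. The groups did not overlap, and the log2 fold change was -1.77 ± 0.27 (limma, adjusted p = 5.6e-06), so that PAN02 spleens had 0.293 times the signal.

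The other chains of the complex did likewise. Cd3e fell by 1.47 and Cd3d by 1.38 on the log2 scale, and the 3 genes lie side by side on chromosome 9. Both coreceptors were lower. Cd8b1, a chain of the CD8 coreceptor, was at 5.45, 6.38, 7.33, 6.55 and 5.84 in PAN02 spleens, against 8.36, 7.39, 8.28, 7.82 and 7.63 in tumour-free spleens (log2 fold change -1.59 ± 0.25, limma, adjusted p = 8.1e-06). Cd8a fell by 1.20 and Cd4 by 1.14.

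Lat, the adaptor that carries the receptor signal, fell by 1.41 with PAN02 spleens at 6.87 to 7.68 and tumour-free spleens at 8.30 to 9.01. Themis, needed for thymocyte selection, fell by 1.33, the costimulator Icos by 1.28, the transcription factor Lef1 by 1.07 and the interleukin 7 receptor Il7r by 1.03. Outside the list, Cd96, a receptor of T and NK cells, fell by 1.66, Gimap3, a GTPase of lymphocytes, by 1.22, and Cd40lg, the CD40 ligand of helper T cells, by 1.22. St8sia1, a ganglioside sialyltransferase, fell by 1.34. The Cd40lg call was lost without PAN02 spleen 1 or 3 or tumour-free spleen 1 (limma, adjusted p = 0.058 to 0.088).

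In 15 of the 25 T cell genes all 5 PAN02 spleens lay below all 5 controls, against 1.01% of all genes. PAN02 spleen 1, the highest in Ngp, had the lowest T cell mean, 5.71 against 6.11 to 6.62 in the others, and tumour-free spleens had 6.87 to 7.49. The count of called T cell genes was 8 to 12 with single spleens left out, 6 with males as controls and 5 without tumour-free spleens 1 and 3. Without those 2 controls Cd3g differed by -1.45 (limma, adjusted p = 0.0052) and Lat by -1.30 (limma, adjusted p = 0.0021), while the calls of Cd3e, Themis and Icos were lost (limma, adjusted p = 0.098 to 0.18). Against other tumour families 0 T cell genes were called and the median was -0.30. Cd3g differed there by -0.76 ± 0.21 (limma, adjusted p = 0.039) and Cd8b1 by -0.71 ± 0.19 (limma, adjusted p = 0.034), short of the fold limit.

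Other lymphocyte genes were not called. The B cell (21 tested), NK and cytotoxic (17), regulatory T cell (9), germinal centre (9), plasma cell (20) and MHC class II (6) lists had 0 calls, with medians between -0.20 and 0.00. Cd79a, a chain of the B cell receptor, differed by -0.35 and Ms4a1 (CD20) by -0.06. Ncr1, an NK cell receptor, differed by -0.75 (limma, adjusted p = 0.051). As a group, PAN02 spleens also had higher neutrophil granule means (5.91 to 7.21, against 4.85 to 5.24 in tumour-free spleens). Their erythroid means were 5.78 to 7.75, against 4.82 to 6.44. Within PAN02, spleen 1 had the lowest T cell mean (5.71) and the highest granule mean (7.21). Spleen 4 had the highest T cell mean (6.62) and the next highest granule mean (6.34). The part of these genes in the T cell result was not tested.

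**Figure D2:**
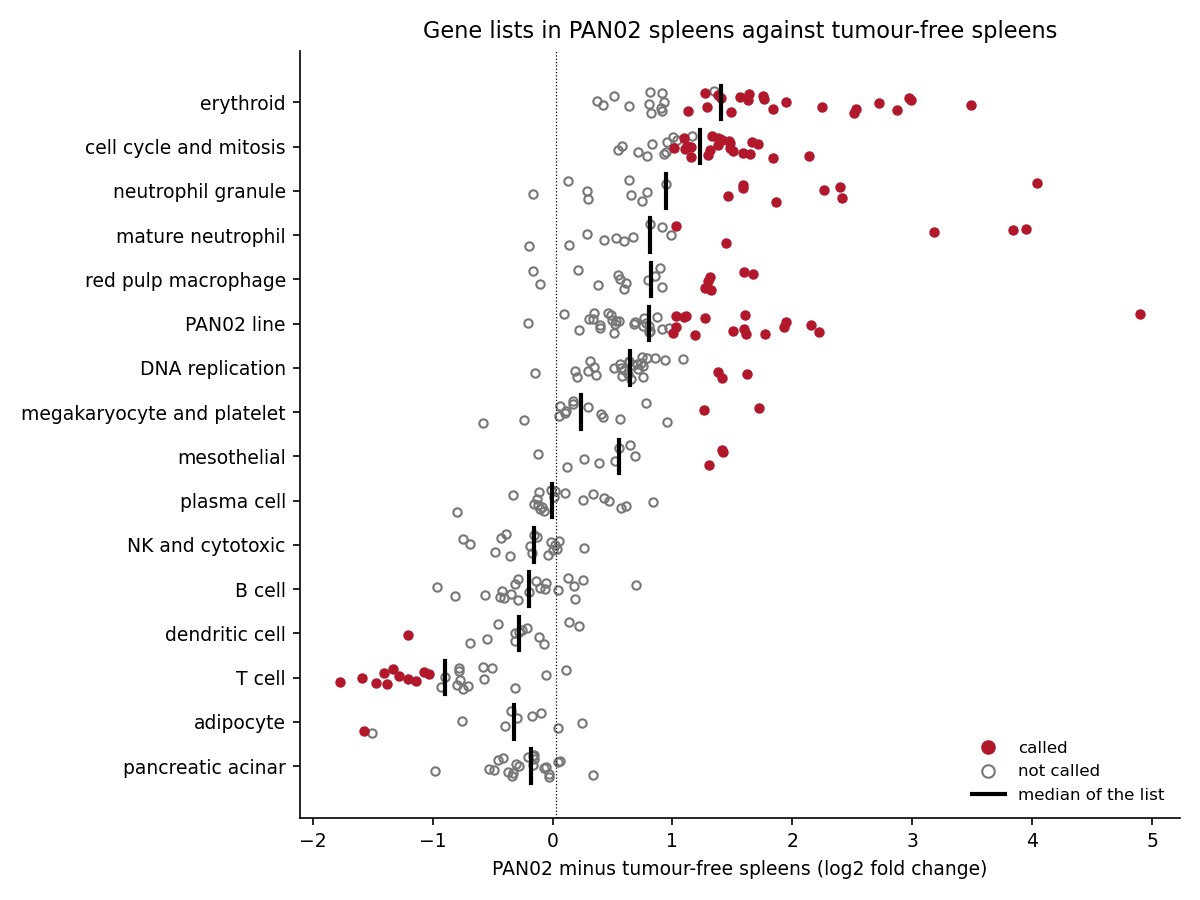
Log2 fold changes of PAN02 over tumour-free spleens for the tested members of 16 gene lists. The PAN02 line list shows the 43 tested of the 50 genes highest in cultured PAN02 cells over tumour-free male spleens. Each point is a gene (red when called, open grey when not), black bars are list medians and the dotted line is the median of all genes tested. Erythroid (median 1.41) and cell cycle (1.23) genes lie to the right, T cell genes (-0.90) to the left.

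Of the other decreases, fat genes moved with 2 controls. Cdo1, cysteine dioxygenase, on chromosome 18, was at 4.54, 4.73, 4.10, 4.24 and 4.64 in PAN02 spleens and at 7.72, 4.91, 8.73, 4.74 and 5.84 in tumour-free spleens (log2 fold change -1.94 ± 0.37, limma, adjusted p = 0.00020). Tumour-free spleens 1 and 3 were the high ones. Car3, a carbonic anhydrase abundant in fat and muscle, was at 6.88 and 8.63 in those 2 spleens, at 4.33 to 5.01 in the other 3 and at 3.65 to 4.97 in PAN02 spleens. Adiponectin (Adipoq) was at 6.56 and 8.34 in them, at 4.13 to 5.35 in the other 3 and at 3.70 to 4.88 in PAN02 spleens.

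Without tumour-free spleens 1 and 3 the log2 fold changes were -0.71 for Cdo1 and -0.37 for Car3, and neither was called (limma, adjusted p = 0.37 and 0.80). The Car3 call was also lost without tumour-free spleen 1 alone (-1.34, limma, adjusted p = 0.061) or 3 alone (-0.90, limma, adjusted p = 0.19). Car3 and Car2 adjoin each other on chromosome 3 and were called in opposite directions. H2-M2, a nonclassical class I molecule, was likewise highest in tumour-free spleens 1 and 3 (8.00 and 8.04, against 5.95 to 6.57 in the other 3 and 4.67 to 6.30 in PAN02 spleens). It fell by 1.67 ± 0.31, and without those 2 spleens the difference was -0.95 (limma, adjusted p = 0.15). Apol7c, an apolipoprotein L gene, fell by 1.54 ± 0.28 and was called without them too (-1.41, limma, adjusted p = 0.0089).

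Saa3, an acute phase apolipoprotein made at sites of inflammation, averaged higher in PAN02 spleens than in either comparison group. It was at 8.60, 5.70, 7.34, 5.82 and 5.73 in PAN02 spleens 1, 3, 4, 5 and 6, against 3.96, 3.86, 3.14, 3.47 and 3.95 in tumour-free spleens. The groups did not overlap (log2 fold change 2.96 ± 0.39, limma, adjusted p = 3.3e-07). The 43 spleens of other tumours had a median of 4.06 and a maximum of 6.13, which PAN02 spleens 3, 5 and 6 did not reach. PAN02 spleens exceeded the mean of those families by 2.53 ± 0.30 (limma, adjusted p = 2.2e-09). The SD of Saa3 was 1.30 among PAN02 spleens and 0.36 among tumour-free spleens. These errors and p-values, from a shared spread, therefore understate the variation among PAN02 spleens. Saa3 was at 6.27 to 10.08 in PAN02 tumours and at 4.16 in the cultured line.

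In the comparison with other tumour-bearing spleens, 34 genes were higher (0.253% of 13414) and 0 lower in PAN02. Those other tumours grew under the skin, and their sample numbers do not interleave with those of PAN02 organs. Tumour line, site of growth and processing order therefore cannot be told apart in this comparison. At an unadjusted p under 0.05, 318 of 13414 genes were lower irrespective of size. A two-sided threshold of 0.05 gives about that many in 1 direction without any difference. Of the lower genes, 11 passed the adjusted p below the fold limit. The count was 22 without PAN02 spleen 4 (20 higher, 2 lower) and 58 without PAN02 spleen 6 (57 higher, 1 lower). After Saa3 the largest differences were Krt18, Fn1, Mgp, Egln3, Ankrd1, Retnlg, Lum, Cpe and Lgals1. Of the 34 genes, 31 (91.2%) averaged at least 1 log2 unit higher in PAN02 tumours than in tumour-free male spleens, against 5.91% of all genes, and 20 (58.8%) were that much higher in the culture, against 28.9%.

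Krt18, a keratin of simple epithelia on chromosome 15 (102028216 to 102032026), was at 6.63, 7.43, 7.22, 5.77 and 4.40 in PAN02 spleens 1, 3, 4, 5 and 6. The 43 spleens of other tumours ran from 3.14 through a median of 3.97 to 5.41, and tumour-free spleens from 3.68 to 4.78. Spleens 1, 3, 4 and 5 lay above all of these, and spleen 6 inside their range. PAN02 spleens exceeded the other families by 2.20 ± 0.26 (limma, adjusted p = 2.2e-09), and Krt18 was at 10.67 in the culture and 7.76 to 9.03 in the tumours.

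Fn1, fibronectin, was at 8.01, 9.50, 9.55, 8.54 and 6.71, with 5.74 to 6.96 in other tumour-bearing spleens and 6.38 to 6.65 in tumour-free spleens. The difference was 1.81 ± 0.16 against the other families (limma, adjusted p = 5.4e-14) and 1.93 ± 0.22 against tumour-free spleens (limma, adjusted p = 8.7e-10). Its SD was 1.18 among PAN02 spleens and 0.10 among tumour-free spleens, so these errors and p-values, from a shared spread, understate the variation among PAN02 spleens. The same holds for Krt18 (SDs of 1.24 and 0.46), Ankrd1 (1.37 and 0.22) and Egln3 (1.45 and 0.25). Ankrd1, a target of the YAP pathway, was at 3.60, 5.91, 6.78, 5.62 and 3.85, so spleens 3, 4 and 5 were high and spleens 1 and 6 lay within the range of other tumour-bearing spleens (2.98 to 4.34). Egln3, a prolyl hydroxylase induced by hypoxia, was high in the same 3 spleens (7.09, 7.12 and 5.39) and at 4.24 or lower in spleens 1 and 6.

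Of 18 fibroblast and matrix genes, 3 were higher than in the other families (Dcn, Fn1 and Lum) and 0 lower, with a median of 0.29. Over all genes, 0.253% were higher in that comparison. Lum, lumican, was at 4.28, 5.91, 5.90, 5.28 and 3.33 in PAN02 spleens, with 1.94 to 4.65 in other tumour-bearing spleens, 8.08 to 9.50 in PAN02 tumours and 3.47 in the culture. Mgp, matrix Gla protein, was at 8.60, 8.56, 8.68 and 8.07 in spleens 1, 3, 4 and 5 and at 5.61 in spleen 6. It was at 4.70 to 7.41 in other tumour-bearing spleens and 5.19 in the culture. Cpe, carboxypeptidase E, and Lgals1, galectin 1, differed by 1.56 ± 0.21 and 1.55 ± 0.23 and were high in the culture (9.03 and 11.50).

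**Figure D3:**
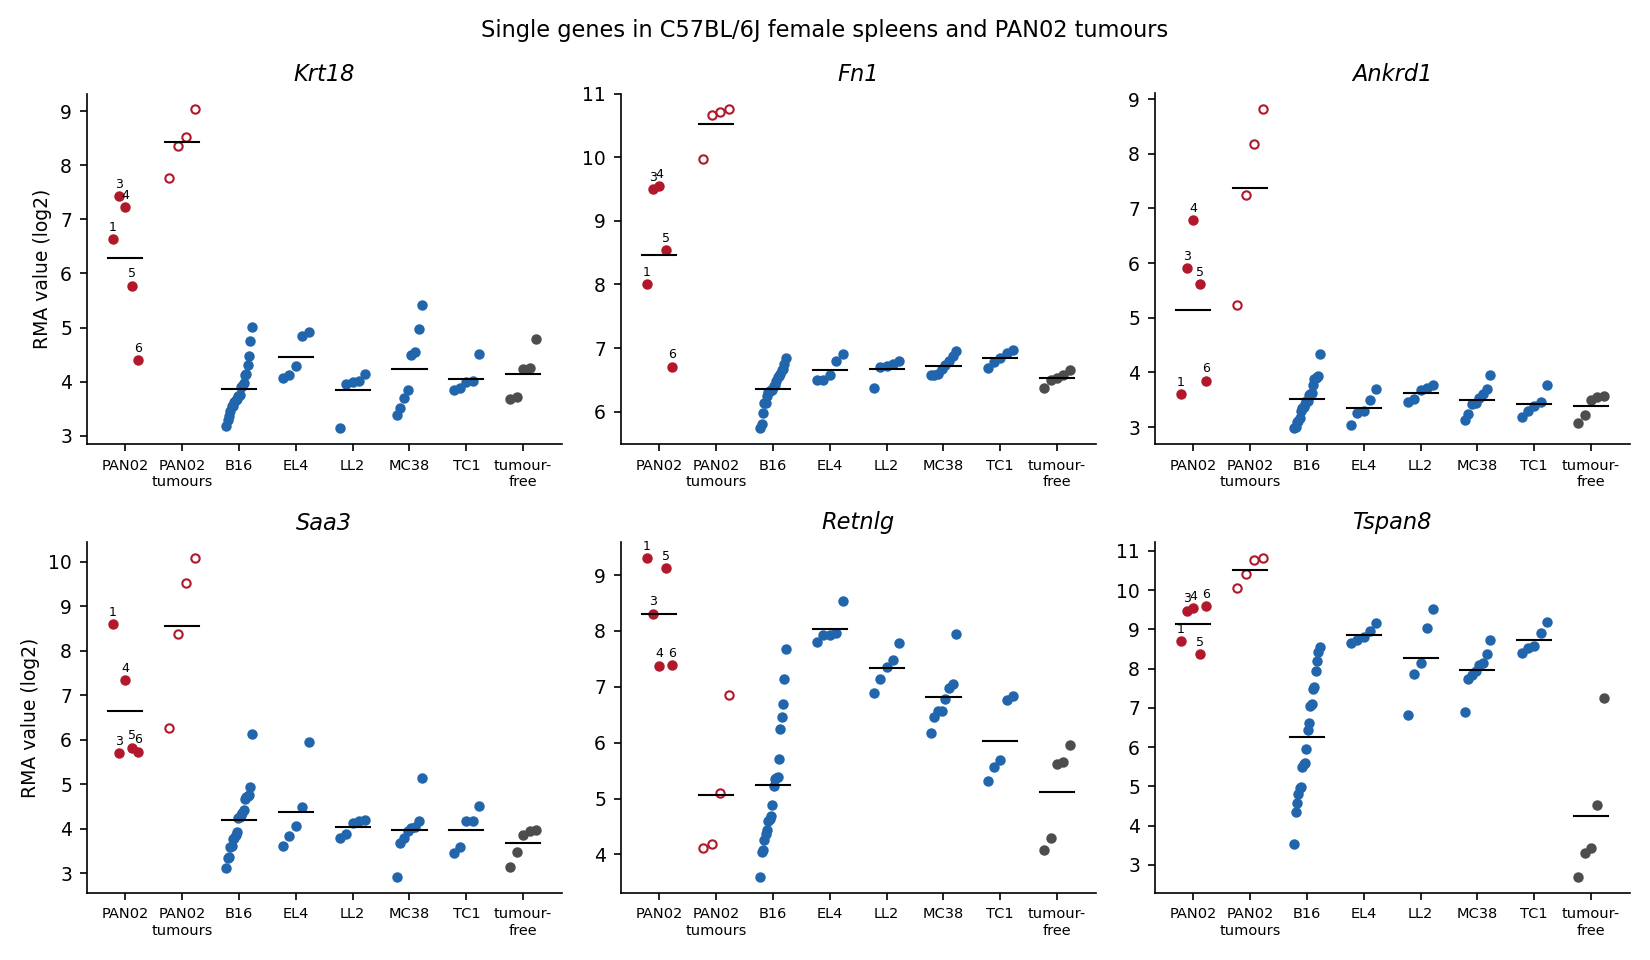
RMA values (log2) of 6 genes in PAN02 spleens (filled red, animal numbers given), PAN02 tumours (open red), spleens of 5 other tumour families (blue) and tumour-free spleens (grey), all in C57BL/6J females. Points are single arrays and lines are means. Spleen 6 sits at the level of the other spleens in Krt18, Fn1 and Ankrd1 but not in Tspan8, which is high in most tumour-bearing groups.

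Genes of the line were higher as a group. The 50 genes with the largest excess in the culture over tumour-free male spleens were taken without use of the PAN02 spleens. The filter on low values did count those spleens, so a gene could pass by its level there, and 43 passed it. Against tumour-free females 17 were higher and 0 lower, and against the other families 10 were higher and 0 lower, with medians of 0.80 and 0.75. Over all genes tested, 1.6% and 0.253% were higher, with medians of 0.03 and -0.005. The line gene count against the other families was 17 without PAN02 spleen 6. When genes had to exceed the median of all values in at least 4 spleens, the line gene counts were 9 and 4. With no filter, 17 and 10 of all 50 genes were higher, with medians of 0.76 and 0.64. Their mean was 5.36, 5.71, 5.82, 5.32 and 4.76 in PAN02 spleens 1, 3, 4, 5 and 6, against 4.26 to 4.94 in other tumour-bearing spleens and 4.38 to 4.58 in tumour-free spleens. Spleens 1, 3, 4 and 5 lay above every other spleen of these groups and spleen 6 within their range. PAN02 tumours had 6.77 to 7.23 and the culture 9.00.

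Of the 10 genes at the top of that set, Krt18, Ankrd1, Cldn2, a claudin of leaky epithelia (1.59), Sema3c, a semaphorin (1.27), and Gsta4, a glutathione transferase (1.03), were called higher against tumour-free spleens. Efna5, an ephrin (0.97), Cpe (0.92), Pcbd1 (0.53) and Wfdc2 (0.46) were not called, and Ptgs2 (cyclooxygenase 2) did not pass the filter, with 3.24 to 4.89 in PAN02 spleens. The set shares 9 genes with the other lists, among them Cdk1 of the cell cycle list and Mt2 of the erythroid list. Tspan8, Cdk1, Mt2 and Asns, all called higher against tumour-free spleens, differed by 1.12, 0.07, 0.86 and 0.35 from the other families and were not called there.

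Of the 17 epithelial and duct genes tested, only Krt18, Tspan8 and Ehf, an epithelial transcription factor (1.15), were called. Over all genes, 1.6% were called higher against tumour-free spleens. E-cadherin (Cdh1) differed by 0.15 and Epcam by -0.31. The mesothelial list had 3 of 11 called higher, Upk1b (1.42), Efemp1 (1.30) and Slpi (1.42), and PAN02 spleen 1 had the highest mesothelial mean, 6.24 against 4.96 to 5.40 in the others and 4.54 to 4.89 in tumour-free spleens. Upk1b was at 7.72 in spleen 1 and at 3.58 in spleen 3.

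Genes of the normal pancreas had no calls. Of 22 acinar genes tested 0 were called, and the list mean was 4.11 to 4.47 in PAN02 spleens. The procarboxypeptidase gene Cpb1 was at 3.13 to 3.56 in PAN02 spleens, against 8.31 in tumour-free spleen 4 and 3.42 to 3.51 in the other controls. Tumours 3 and 4 had acinar means of 8.31 and 10.83, and tumours 1 and 6 had 4.93 and 4.44. Among other tumour-bearing spleens the acinar mean reached 7.72. The origin of the line genes measured in spleens 1, 3, 4 and 5 was not tested.

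**Figure D4:**
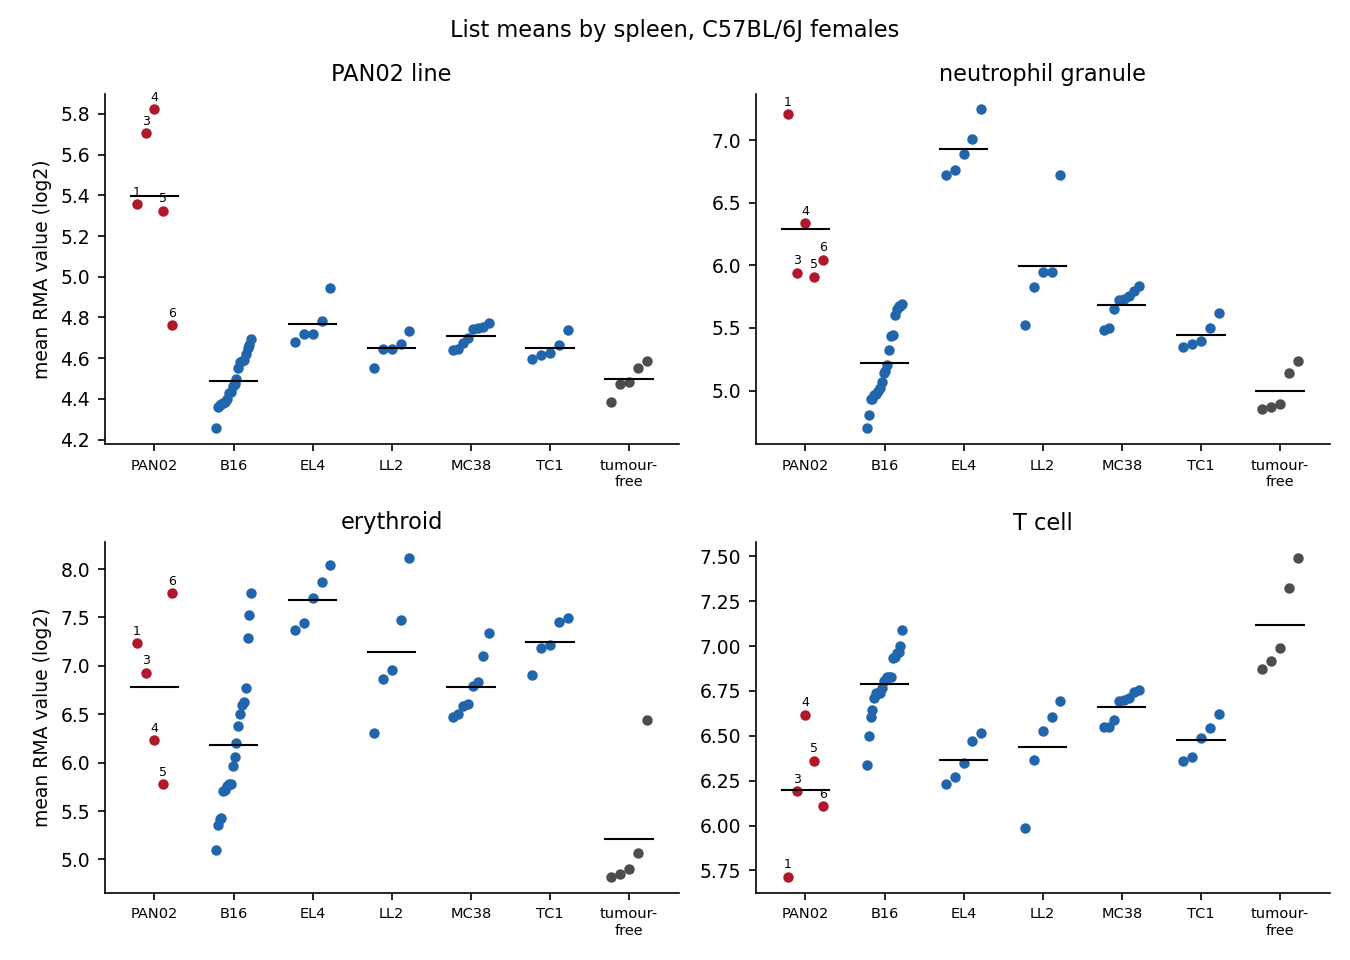
Mean RMA value (log2) over the measured genes of 4 lists in single spleens of C57BL/6J females: PAN02 (red, animal numbers given), 5 other tumour families (blue) and tumour-free (grey), with group means as lines. PAN02 spleens 1, 3, 4 and 5 exceed all other spleens in line genes, neutrophil granule means are highest in PAN02 spleen 1 and in EL4 spleens, and T cell means are above all PAN02 spleens in tumour-free spleens.

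Different animals led in different gene sets. Spleen 6 had the highest erythroid and cell cycle means and the lowest line gene mean, spleen 1 the highest neutrophil granule and lowest T cell mean, and spleen 4 the highest line gene mean. Without spleens 3, 4 and 5, the spleens in which Ankrd1 and Egln3 were high, 365 genes were higher and 61 lower against tumour-free spleens. The erythroid count was then 26, the neutrophil granule count 9 and the T cell count 15, and 9 line genes were called. This split was chosen after seeing the data and left spleens 1 and 6. Those had the highest erythroid means (7.23 and 7.75) and the lowest T cell means (5.71 and 6.11) of the PAN02 spleens. Spleen 1 also had the highest granule mean (7.21). Ankrd1 is itself a line gene, and spleens 3 and 4, which were left out, had the highest line gene means (5.71 and 5.82). The erythroid, granule, T cell and line gene counts therefore all depend on that choice.

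Remaining lists gave few calls, beside 1.6% of all genes called higher. Prg2, an eosinophil granule protein, was the 1 called of 8 eosinophil genes (1.30 ± 0.39). Rsad2 (viperin) was the 1 called of 19 type I interferon genes (2.08 ± 0.59), and its values of 8.14, 7.81, 6.42, 5.17 and 8.81 in PAN02 spleens followed the order of Hemgn. Monocyte genes had 3 of 11 called, Fn1, Fcgr4, an activating Fc receptor (1.49), and Plac8 (1.07). The interferon gamma, endothelial, stem and progenitor, pancreatic islet, heat shock and marginal zone macrophage lists had 0 calls.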

How the data were processed

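Affymetrix mouse exon arrays carried biotin-labelled product of the WT-Ovation Pico kit, per the labels' protocols. The authors deposited log2 values of 17831 probe sets on 283 arrays, made with RMA per the submitters' processing notes. Which arrays shared a normalisation, its version and the probe build are details not given in these sources. RMA equalises the arrays' distributions before probe sets are summarised and compresses changes of weak genes. Array medians of the deposited values still differed, from 5.19 to 5.66 over the series. They were 5.3245 to 5.3832 in PAN02 and 5.2582 to 5.3155 in tumour-free spleens, without overlap. No arrays were identical, and array number limits the precision. Labels give 1 animal per spleen.

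Probe sets naming 1 gene were kept (15620, of which 15559 matched RefSeq by ID; 1370 named several genes and 841 none). For 375 genes with several, the brightest was used, which gave 15224 genes. A gene was tested if at least 4 of 98 spleens exceeded 4.30, the lower quartile of all values. limma 3.58.1 in R 4.3.3 fitted all spleens by group, with two-sided contrasts of PAN02 against tumour-free females and against the mean of 5 tumour families. Python 3.11.15 with pandas 2.3.3 and matplotlib 3.10.9 made tables and figures. The procedure was tested on simulated data.

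Named genes were the 15 highest and 15 lowest called against tumour-free spleens, the 10 highest against other tumours (0 were lower), the 10 top line genes, Tspan8, Ngp and Cd3g, and members of 34 lists (564 of 697 entries measured). Predicted, receptor segment and small RNA genes were not named. Members and lists were chosen with earlier results of these data known. Asns was named after its values were seen. Animal numbers recur in both groups, but deviations of like-numbered spleens correlated at -0.22 to -0.05, so they were not treated as pairs.

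Alternatives varied the arrays fitted, scaling, filter, probe set rule, variance model, weights, replicate block, control sex, family weights and single spleens or families. Those without tumour-free spleens 1 and 3, and without PAN02 spleens 3, 4 and 5, were chosen after seeing the data.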

Additional observations from a re-analysis of the deposited data

Results flagged for a closer look

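Over 45 named genes, the 2 groups of 5 spleens were searched for a sample far from the rest of its group by Dixon's test, and 4 of 90 groups held one, where chance gives about 1 in 20. In tumour-free spleens, animal 2 stood apart in Hemgn (8.71), Ctse (8.50) and Rhag (6.51). In PAN02 spleens, animal 6 stood apart in Mgp, at 5.61 against 8.07 to 8.68 in the others.

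The 10 genes with the largest difference between PAN02 spleens and the mean of the other tumour families are listed because the difference itself was tested with limma. Their log2 differences were 2.53 for Saa3, 2.20 for Krt18, 1.81 for Fn1, 1.70 for Mgp, 1.69 for Egln3, 1.67 for Ankrd1, 1.61 for Retnlg, 1.60 for Lum, 1.56 for Cpe and 1.55 for Lgals1.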

How the results depend on the processing

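Against tumour-free spleens, 254 genes were called, 215 higher and 39 lower. Other settings gave 101 genes (74 higher) with only the 10 arrays fitted, 92 (74 higher, 18 lower) with males as controls, 70 (56 and 14) without tumour-free spleens 1 and 3, and 426 (365 and 61) without PAN02 spleens 3, 4 and 5. With animal number as a replicate block, which does not pair these samples, 96 were called (91 higher, 5 lower), and 1 T cell gene, 0 red pulp macrophage genes, 4 cell cycle genes, 4 neutrophil granule genes and 17 erythroid genes. Leaving out single spleens gave 136 to 354 genes, 112 to 318 higher and 24 to 50 lower. Quantile normalisation, median centring, both filters, trend and robust fitting, probe set means and array weights kept these 3 counts within 1.5 times. Against other tumours, 34 genes were higher and 0 lower. Requiring values above the median in at least 4 spleens gave 17 genes, and leaving out single PAN02 spleens gave 22 to 58 genes, 20 to 57 higher and 0 to 2 lower. Of the 30 named genes 8 were called against tumour-free spleens in all 22 settings (Tspan8, Ngp, S100a8, S100a9, Retnlg, Saa3, Lat and Apol7c), and of the 10 named against other tumours all but Retnlg in all settings in which they were tested. St8sia1 was lost with probe set means (-0.90). No named gene changed direction. The cause of these changes was not tested, except that fewer arrays or genes enter some fits.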
